A study of Homo sapiens with 9 samples.

Results

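TXNIP (thioredoxin-interacting protein), its arrestin-domain relatives ARRDC1, ARRDC2, ARRDC3 and ARRDC4, the transcription factors MLX, MLXIP and MLXIPL, and the thioredoxins TXN and TXN2 were followed in a human prostate carcinoma line. They are 10 of the 60623 genes in the deposited tables, taken by symbol, and all 10 passed the filter on low counts that left 16213 genes for testing. TXNIP was selected on its measured counts, as the 1 gene called between S239A and WT, and the other 9 were chosen by their relation to it. Values of S239A against WT are therefore a description, with no test.

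RNA was sequenced in 9 libraries of 22RV1 cells, a line labelled as prostate epithelium. In every group PDCD4, an inhibitor of the translation initiation helicase EIF4A, had been depleted with a short hairpin RNA and 1 form of the protein put back. The forms were S239D (aspartate in place of a serine, a mimic of phosphorylation), S239A (alanine, which cannot be phosphorylated) and wild type (WT), with 3 libraries each, grown in serum-containing RPMI medium. The study concerns PLK1-driven loss of PDCD4 and resistance to the antiandrogen enzalutamide. The labels give no drug treatment and do not say whether a form is carried by 1 clone. Neither parental nor knockdown-only cells were analysed here. Separate cultures are not stated for the 3 libraries of a group, so a p-value reflects library-to-library spread alone, which may be technical.

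Total counts were 5696841 to 9688554 per library. All 12 markers fixed for prostate luminal epithelium were above 1 CPM (counts scaled to a common library size), while PTPRC (leukocytes), PECAM1 (endothelium) and KRT5 (basal epithelium) stayed under 1 CPM. The luminal markers summed to 4248 to 4472 CPM in S239D, 5650 to 5910 in S239A and 5327 to 5406 in WT. The 6 fibroblast markers, mostly COL1A1 and LUM, summed to 45.1 to 55.0 CPM in S239D, 66.7 to 75.1 in S239A and 62.1 to 74.6 in WT; the part of these marker levels in the results was not tested. PDCD4 stood at 16.8 to 17.1 normalised CPM in S239D, 19.0 to 25.0 in S239A and 20.4 to 24.9 in WT, counting endogenous and introduced transcripts together. Its log2 fold change in S239D was -0.44 against WT (edgeR adjusted p = 0.0164) and -0.40 against S239A (edgeR adjusted p = 0.0245). S239D thus differed in PDCD4 transcript level as well as in form, and the part of that level in the results was not tested. On the second principal component, replicate 2 of S239D (-27.3) and replicate 2 of S239A (-35.8) lay away from all other libraries, which were between 2.81 and 17.5. These 2 also had the highest mitochondrial share of counts in their groups, 6.01% in S239D and 5.38% in S239A; the share was 4.72% to 6.01% in S239D, 2.99% to 5.38% in S239A and 2.83% to 3.04% in WT, and its part in the results was not tested. Fewer cells expressing a gene and less RNA per cell cannot be told apart in such bulk samples.

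TXNIP is an alpha-arrestin, a membrane-traffic adaptor that binds reduced thioredoxin and restrains glucose uptake by promoting removal of glucose transporters from the cell surface. Its gene and that of ARRDC4 are classic targets of MLXIP (MondoA) and MLXIPL (ChREBP), which pair with MLX, sense glucose-6-phosphate and bind paired E-box elements in promoters. The ARRDC proteins link membrane cargo to ubiquitin ligases of the NEDD4 family, and thioredoxins are the small redox proteins that TXNIP binds.

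The start-site regions of TXNIP and ARRDC4 are shown because in these 2 members every S239D library lay above, and every S239A library below, all WT libraries. Both are the 250 bases before the transcription start in RefSeq on GRCh38.p14, written 5′ to 3′ on the gene's own strand, TXNIP from chr1:145996580-145996829 (minus strand) and ARRDC4 from chr15:97960453-97960702 (plus strand). Capitals mark matches to the E-box CACGTG, the paired form (CACGNG, 5 further bases, CACGNG) and the CCAAT box CCAAT, all searched on both strands; an E-box could overlap the paired form.
TXNIP: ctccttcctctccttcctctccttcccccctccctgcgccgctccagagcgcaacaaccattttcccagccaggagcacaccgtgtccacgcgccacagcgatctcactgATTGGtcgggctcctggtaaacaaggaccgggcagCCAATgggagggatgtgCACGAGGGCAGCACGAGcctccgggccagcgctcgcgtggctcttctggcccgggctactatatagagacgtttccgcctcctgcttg
ARRDC4: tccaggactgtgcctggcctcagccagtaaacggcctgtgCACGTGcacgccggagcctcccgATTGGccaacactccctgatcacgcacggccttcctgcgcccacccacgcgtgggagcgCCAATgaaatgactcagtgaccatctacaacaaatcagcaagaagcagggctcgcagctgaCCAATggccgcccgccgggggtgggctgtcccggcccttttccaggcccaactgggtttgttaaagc

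TXNIP, which has 2 windows in the table of which the first is shown, held 1 match to the paired form, from -88 to -72 relative to the start, and 2 CCAAT boxes, the nearer one ending at -101. ARRDC4 held an E-box from -210 to -205, 3 CCAAT boxes and no match to the paired form in this window. Of 35116 such windows of 300 bases in the RefSeq table, 20 (0.057%) held the paired form, 7.26% an E-box and 34.6% a CCAAT box. The paired form was spelled with the letters of the TXNIP window in view, so its presence there is no finding. Among the other members with a window, MLX held an E-box from -50 to -45, and 9 of the 10 members had a window. The start of those 9 genes in the count table, which names no build, lay within 32 bases of the RefSeq start.

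TXNIP (chromosome 1, 145992435 to 145996579) differed between all 3 forms of PDCD4. It had 622, 661 and 659 normalised CPM in the S239D libraries, 253, 237 and 263 in S239A, and 484, 469 and 452 in WT. The 3 groups did not overlap, with S239D highest and S239A lowest. TXNIP rose 1.38-fold in S239D relative to WT, a log2 fold change of 0.47 (SE 0.073, 95% interval 0.31 to 0.62, edgeR adjusted p = 0.000188). Against S239A the log2 fold change in S239D was 1.37 (SE 0.075, 95% interval 1.21 to 1.53, edgeR adjusted p = 1.67e-08). These 2 comparisons share WT or S239A libraries with the one from which TXNIP was chosen and are not independent of it. In S239A against WT the log2 fold change was -0.90 (95% interval -1.06 to -0.74), a description only. No gene in the count table overlaps TXNIP.

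**Figure D1:**
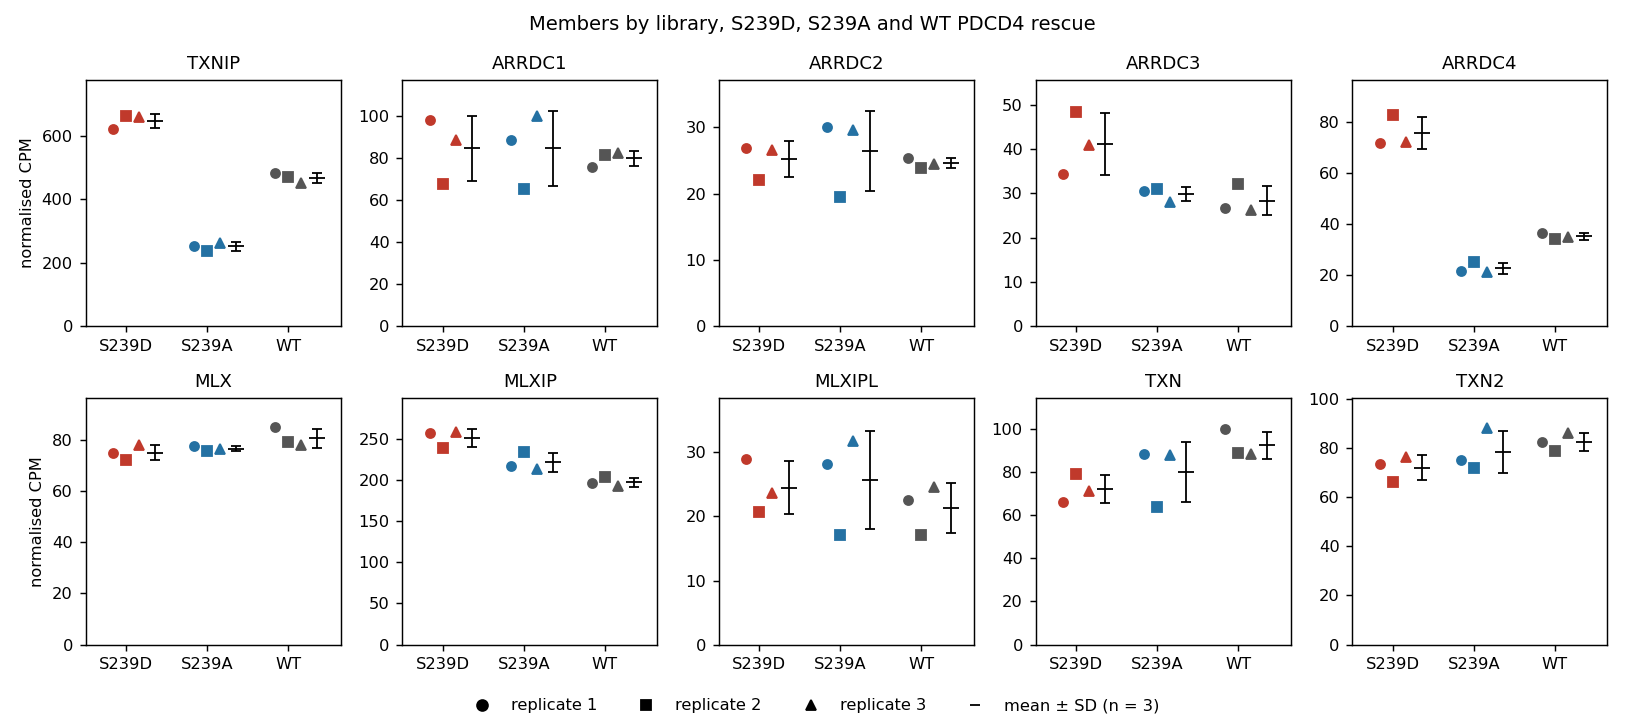
Normalised CPM of the 10 members in each library of S239D, S239A and WT, 1 panel per gene with its own axis from 0; symbols mark replicates and the black bar the mean ± SD (n = 3). TXNIP and ARRDC4 lie highest in S239D and lowest in S239A, with no overlap between the 3 groups.

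ARRDC4 (chromosome 15, 97960703 to 97973833), an alpha-arrestin also linked to glucose uptake, followed the same order with larger steps above WT. It had 72.0, 82.9 and 72.2 normalised CPM in S239D, 21.6, 25.2 and 21.3 in S239A, and 36.7, 34.1 and 35.0 in WT. The 3 groups again did not overlap. ARRDC4 rose 2.14-fold in S239D relative to WT (log2 fold change 1.10, SE 0.10, edgeR adjusted p = 2.48e-06) and 3.34-fold relative to S239A (1.74, SE 0.11, edgeR adjusted p = 4.06e-08). In S239A the log2 fold change against WT was -0.64 (95% interval -0.88 to -0.40). The order S239D above WT above S239A with no overlap was met by 359 of the 16213 genes (2.21%) and by these 2 of the 10 members. TXNIP was chosen from S239A against WT, so its place below WT in S239A was set by that choice. The 2 members are therefore not to be weighed against the 2.21%. The opposite order was met by 3.19% of genes and by no member.

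**Figure D2:**
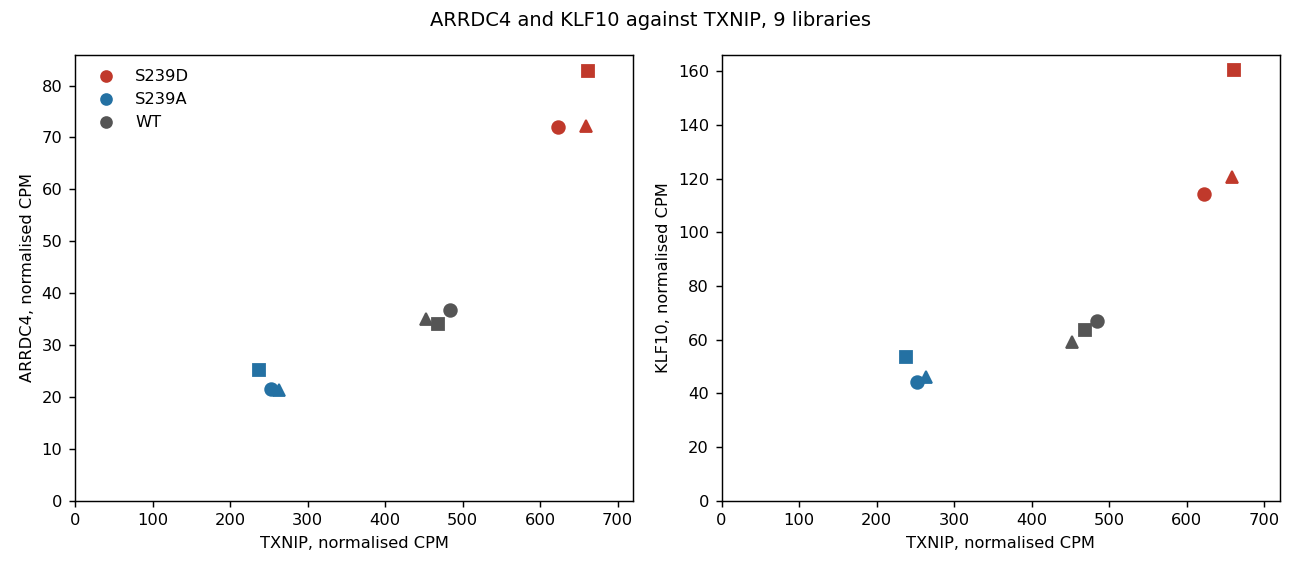
ARRDC4 (left) and KLF10 (right) against TXNIP, both axes in normalised CPM from 0, 1 point per library, coloured by PDCD4 form with symbols for replicates 1 (circle), 2 (square) and 3 (triangle). The 3 S239D libraries sit at the top right and the 3 S239A libraries at the bottom left in both panels.

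ARRDC3 (chromosome 5, 91368631 to 91383317), an adaptor for receptor and integrin turnover, was also higher in S239D. It had 34.4, 48.4 and 40.9 normalised CPM in S239D, 30.5, 31.1 and 28.0 in S239A, and 26.8, 32.1 and 26.2 in WT. The S239D libraries lay above the other 6, and S239A and WT overlapped. ARRDC3 rose in S239D by a log2 fold change of 0.55 against WT (SE 0.13, edgeR adjusted p = 0.00434) and 0.47 against S239A (SE 0.13, edgeR adjusted p = 0.00999). Neither passed with limma on TPM, taken as log2(TPM + 1), where the values were 0.39 (limma adjusted p = 0.1155) against WT and 0.35 (limma adjusted p = 0.143) against S239A. The antisense gene ARRDC3-AS1 overlaps 2969 bases of it and had 3 to 9 counts per library.

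ARRDC1, which takes part in the release of vesicles from the plasma membrane, and ARRDC2, another ubiquitin ligase adaptor, did not pass in either comparison of S239D. ARRDC1 had 97.9, 67.3 and 88.3 normalised CPM in S239D, 88.3, 65.1 and 100.1 in S239A, and 75.7, 81.5 and 82.4 in WT. The groups overlapped, and the log2 fold change in S239D was 0.083 against WT (95% interval -0.24 to 0.40) and -0.0015 against S239A (-0.32 to 0.32). ARRDC2 had 26.9, 22.1 and 26.6 normalised CPM in S239D, 30.1, 19.4 and 29.6 in S239A, and 25.4, 23.9 and 24.5 in WT. Its log2 fold change was 0.035 against WT (95% interval -0.30 to 0.37) and -0.068 against S239A (-0.39 to 0.26). The upper bounds against WT lie below the 0.47 of TXNIP. Replicate 2 was the lowest library of its group for both genes in both variants. Without S239A replicate 2 and S239D replicate 2, ARRDC1 passed in S239D against WT (0.22, edgeR adjusted p = 0.0123).

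Of the glucose-sensing factors, MLXIP (MondoA; chromosome 12, 122078756 to 122147344) rose in S239D, and its partner MLX and its relative MLXIPL did not pass. MLXIP had 257, 238 and 259 normalised CPM in S239D, 217, 234 and 213 in S239A, and 196, 204 and 192 in WT. The groups did not overlap, but here S239A lay between S239D and WT, unlike in TXNIP and ARRDC4. The log2 fold change of MLXIP in S239D against WT was 0.35 (SE 0.076, edgeR adjusted p = 0.00221), against 0.23 by limma on log2(TPM + 1), where it did not pass (limma adjusted p = 0.152). Against S239A it was 0.18 (SE 0.076, edgeR adjusted p = 0.0637), and without S239A replicate 2 it passed (0.23, edgeR adjusted p = 0.019). It also passed without S239D replicate 2 (0.22, edgeR adjusted p = 0.0229).

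MLX had 74.8, 72.3 and 78.1 normalised CPM in S239D, 77.8, 75.7 and 76.4 in S239A, and 85.0, 79.2 and 77.9 in WT. These values lay within a narrow range, with log2 fold changes in S239D of -0.10 against WT (95% interval -0.28 to 0.073) and -0.029 against S239A (-0.21 to 0.15). The MLX gene overlaps PSMC3IP on the opposite strand by 925 bases; PSMC3IP had 174 to 303 counts per library and whether reads were counted by strand is not stated, so their reads may not be fully told apart. MLXIPL (ChREBP) had 28.9, 20.7 and 23.7 normalised CPM in S239D, 28.1, 17.1 and 31.9 in S239A, and 22.5, 17.0 and 24.6 in WT. It varied more within groups than between them (S239D against WT 0.18, 95% interval -0.26 to 0.62). The length that the deposited TPM imply for MLXIPL differed 1.95-fold between libraries, against 1.02-fold to 1.32-fold for the other members, so its TPM move with the isoforms assigned as well as with its counts.

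Cytosolic thioredoxin, TXN (chromosome 9, 110243810 to 110256507), moved the opposite way to TXNIP in S239D. It had 66.1, 79.2 and 71.1 normalised CPM in S239D, 88.1, 63.7 and 88.0 in S239A, and 99.7, 88.8 and 88.5 in WT. The S239D libraries lay below the WT libraries and overlapped those of S239A, of which replicate 2 was lowest. TXN fell in S239D relative to WT (log2 fold change -0.36, SE 0.12, edgeR adjusted p = 0.0297). It did not pass once WT replicate 1 was left out (-0.30, edgeR adjusted p = 0.129), nor without WT replicate 2 (0.0538) or WT replicate 3 (0.05395), nor without S239D replicate 1 (0.0985) or S239D replicate 3 (0.0857). By limma on log2(TPM + 1) it was -0.29 (limma adjusted p = 0.137). Against S239A the log2 fold change was -0.15 (95% interval -0.41 to 0.11), and without S239A replicate 2 it was -0.29 (edgeR adjusted p = 0.0265). The TXN pseudogenes TXNP1 to TXNP7 had no counts in any library. TXN2, the mitochondrial thioredoxin, had 73.2, 66.2 and 76.1 normalised CPM in S239D, 75.2, 71.8 and 87.9 in S239A, and 82.5, 78.7 and 85.8 in WT. Its log2 fold change in S239D against WT was -0.20 (95% interval -0.41 to 0.014, edgeR adjusted p = 0.125).

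**Figure D3:**
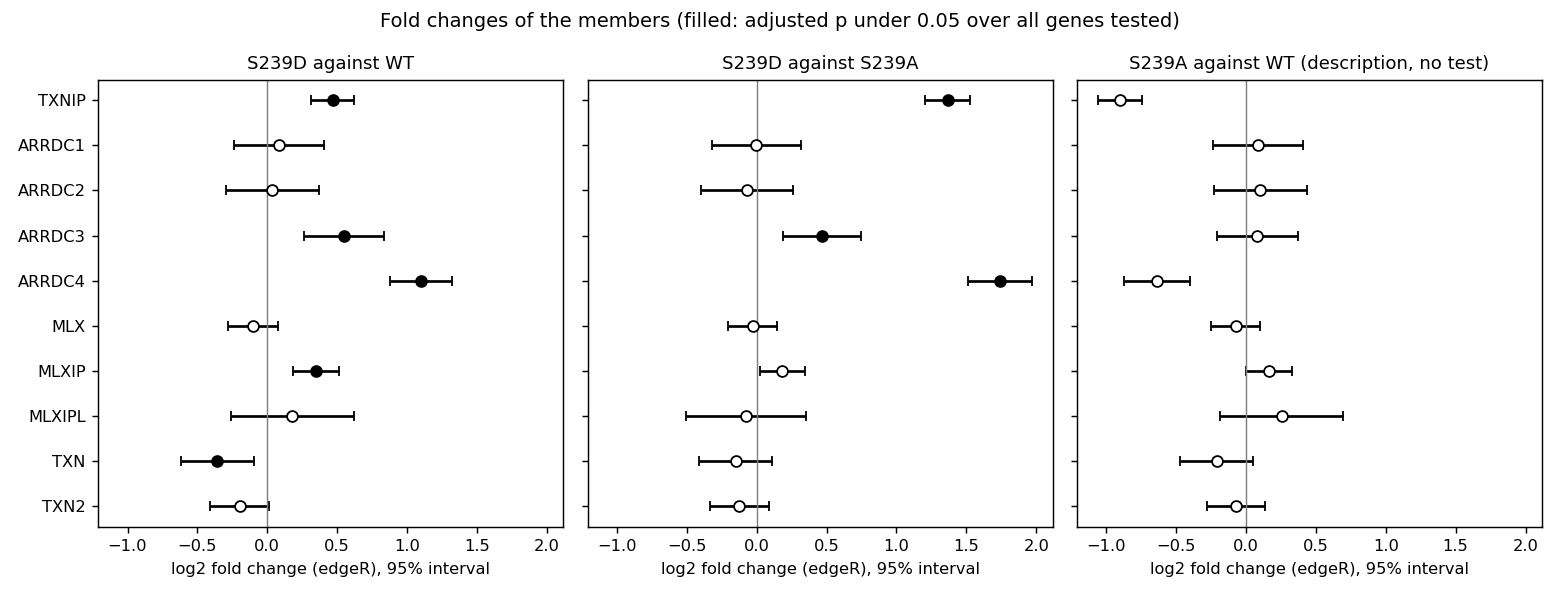
Log2 fold changes (edgeR) with 95% intervals for the 10 members in S239D against WT, S239D against S239A and S239A against WT; filled points passed an adjusted p of 0.05 over all genes tested, and the right panel is a description in which no call is marked. ARRDC4 lies farthest to the right in both S239D panels, TXNIP and ARRDC4 lie left of 0 in S239A against WT, and TXN is the member that fell in S239D against WT.

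In S239D against WT, 4 of the 10 members rose and 1 fell, beside 19.7% and 21.7% of all genes tested, so the share called (5 of 10) was near the 41.4% over all genes. The median log2 fold change of the members was 0.13, against 0.00075 over all genes. In S239D against S239A, 3 rose and 7 did not pass, beside 43.6% called over all genes (20.9% higher and 22.7% lower), with a median log2 fold change of -0.0154 for the members and 0.00985 over all genes. The libraries of S239D and WT did not overlap for 6 members (53.9% over all genes), and those of S239D and S239A for 4 (49.8%). The 2 comparisons share the S239D libraries. In S239A against WT, the 1 member called was TXNIP, which was chosen for being the 1 gene called there (0.00617% of all genes). The libraries of S239A and WT did not overlap for 5 members, TXNIP among them (19.5% over all genes). These counts are a description with no test. Without replicate 2 of both variants, the members called numbered 6 in S239D against WT, beside 8522 genes (51.6% of those tested), and 5 in S239D against S239A, beside 8243 genes (49.9%). By limma on log2(TPM + 1), TXNIP and ARRDC4 were the 2 members called in S239D against WT, beside 25.1% of genes. The same 2 were called against S239A, beside 27.1% of genes.

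Levels between genes were compared on TPM, the authors' length-scaled measure. In S239D the order was TXNIP (359 ± 28 TPM), TXN (224 ± 22), ARRDC1 (113 ± 5.5), TXN2 (96.1 ± 4.5), MLX (53.8 ± 1.0), MLXIP (48.9 ± 2.3), ARRDC4 (27.8 ± 3.3), MLXIPL (20.5 ± 4.8), ARRDC2 (17.6 ± 0.44) and ARRDC3 (14.8 ± 3.4) (SD, n = 3). MLXIPL and ARRDC2, and ARRDC2 and ARRDC3, overlapped there. In S239A, TXN (234 ± 39 TPM) lay above TXNIP (127 ± 7.0), ARRDC1 (98.8 ± 20) overlapped TXN2 (98.8 ± 8.1), and ARRDC4 was last at 7.81 ± 0.78. In WT, TXN (273 ± 20 TPM) lay just above TXNIP (242 ± 7.8), TXN2 (104 ± 4.4) overlapped ARRDC1 (94.0 ± 5.6), and ARRDC4 (12.2 ± 0.48) lay between ARRDC2 (15.3 ± 0.27) and ARRDC3 (10.9 ± 0.35), with MLXIPL (18.9 ± 8.4) overlapping these 3. ARRDC4 thus ranked seventh of the members in S239D, last in S239A and ninth in WT.

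The TPM ratio of TXN to TXNIP was 0.607 to 0.643 in S239D, 1.59 to 1.99 in S239A and 1.10 to 1.18 in WT. TXNIP transcripts outnumbered TXN transcripts in every S239D library, and the reverse held in the other 6 libraries. TXNIP made up 65.5% to 68.8% of the summed TPM of TXNIP and the 4 ARRDC genes in S239D, 46.3% to 52.7% in S239A and 62.9% to 66.2% in WT. The ratio of TXNIP to ARRDC4 was 12.3 to 13.8 in S239D, 13.7 to 18.3 in S239A and 19.4 to 20.6 in WT. The ratio of MLX to MLXIP was 1.02 to 1.14 in S239D, 1.06 to 1.36 in S239A and 1.23 to 1.40 in WT. No test was made on these ratios.

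**Figure D4:**
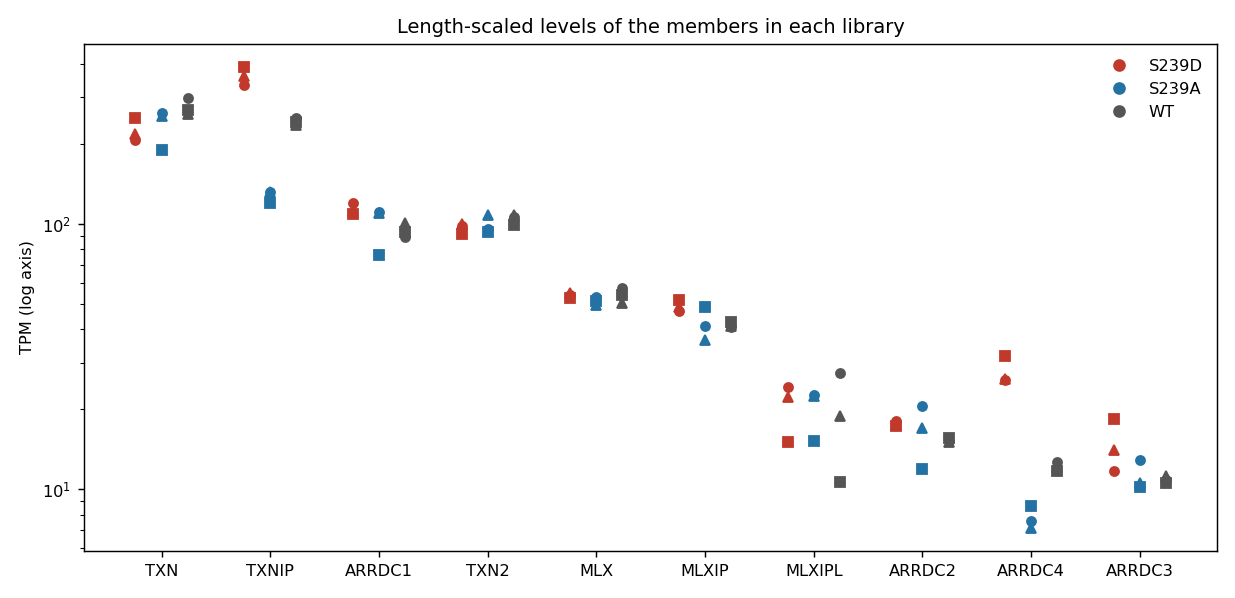
TPM of the 10 members on a log axis, ordered by mean level, 1 point per library with S239D left, S239A middle and WT right within each gene; circles, squares and triangles are replicates 1, 2 and 3. TXNIP lies above TXN in S239D and below it in S239A and WT.

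By Pearson correlation of log2 CPM over the 9 libraries, among 12079 genes with a symbol and a mean of at least 5 CPM, the genes most like TXNIP were AIMP2 (r = 0.981), PRDX6 (0.979), HYAL3 (0.977), NMNAT1 (0.972) and SUMO3 (0.971). The least like it were GSTM4 (-0.981), ZBTB16 (-0.976), DNAJB5 (-0.970), PLCD3 (-0.968) and PLD2 (-0.9655). PRDX6, a peroxiredoxin, averaged 211.5 normalised CPM in S239D, 188 in S239A and 204 in WT, a far smaller range than that of TXNIP. ARRDC4 ranked 59th for likeness to TXNIP (r = 0.932), ARRDC3 had r = 0.575, MLXIP 0.326, and the other members lay between -0.275 and 0.00497. For ARRDC4 the most alike genes were TNFRSF19 (0.996), TFRC (0.994) and WASHC2A (0.989), and the least alike SRRM4 (-0.996), MYLIP (-0.995) and PLCD1 (-0.9935). TXNIP ranked 318th for likeness to ARRDC4, at the same r of 0.932. WASHC2A has a near-identical copy in the genome, so its own count is uncertain. All genes were measured in the same 9 libraries of 3 groups, so these r describe mainly how the 3 group means lie.

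Among other genes of the pathway, 78 of 89 listed genes were tested, of which 11 rose and 25 fell in S239D relative to WT, beside 19.7% and 21.7% of all genes. Without replicate 2 of both variants, 43 of the listed genes were called, beside 51.6% of all genes. Carbohydrate-response genes, targets of the MLX and Mondo factors in liver or other tissues, went both ways: 3 of 14 rose and 4 fell, with a median log2 fold change of -0.0077. KLF10, a zinc finger repressor induced by sugars, was highest in S239D at 132 ± 25 normalised CPM, against 48.1 ± 5.0 in S239A and 63.4 ± 3.9 in WT (SD, n = 3). Its log2 fold change in S239D was 1.06 against WT (SE 0.13, edgeR adjusted p = 1.81e-05) and 1.45 against S239A (edgeR adjusted p = 9.38e-07). FASN, fatty acid synthase, rose in S239D relative to WT (0.43, edgeR adjusted p = 0.000728), with 2766 ± 232 CPM in S239D, 2856 ± 197 in S239A and 2055 ± 55 in WT. ME1, malic enzyme, fell by 1.43 and ACACB, the mitochondrial-surface acetyl-CoA carboxylase, fell by 0.59 on the log2 scale. ACACB did not pass by limma on log2(TPM + 1) (-0.44, limma adjusted p = 0.18).

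Of 13 glucose transporter and hexose-phosphate genes, 8 fell and 1 rose in S239D relative to WT, with a median of -0.49, and 8 fell and 2 rose relative to S239A. Over all genes tested, 21.7% fell and 19.7% rose relative to WT, and 22.7% fell and 20.9% rose relative to S239A. SLC2A1, the widely expressed glucose transporter whose surface level TXNIP limits, had 47.7 ± 6.3 normalised CPM in S239D, 76.3 ± 1.3 in S239A and 88.3 ± 2.1 in WT. It fell by 0.88 on the log2 scale against WT (SE 0.10, edgeR adjusted p = 1.18e-05). Against S239A, SLC2A1 fell by 0.68 (edgeR adjusted p = 0.000104). It did not pass there by limma on log2(TPM + 1) (-0.25, limma adjusted p = 0.2995). SLC2A4, the insulin-regulated transporter, was low in all groups, at 1.504 ± 0.58 CPM in S239D, 9.98 ± 2.3 in S239A and 7.14 ± 0.72 in WT. SLC2A12 fell by 0.97. HK2, a hexokinase that makes glucose-6-phosphate, fell by 0.37 (edgeR adjusted p = 0.0045), and GPI, which converts it to fructose-6-phosphate, fell by 0.57. By limma on log2(TPM + 1), HK2 did not pass (-0.27, limma adjusted p = 0.0842) and SLC2A4 fell by 1.44, against 2.26 by edgeR.

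Of 21 thioredoxin reductase, peroxiredoxin, glutaredoxin and related genes, 8 fell and 1 rose in S239D relative to WT (median -0.28), and 7 fell and 2 rose relative to S239A. Over all genes tested, 21.7% fell and 19.7% rose relative to WT, and 22.7% fell and 20.9% rose relative to S239A. The share called in either direction over all genes was 41.4% relative to WT and 43.6% relative to S239A. The number called in either direction was near that share, while most of the called genes fell. TXNRD1, the cytosolic enzyme that reduces TXN, had 193 ± 5.1 normalised CPM in S239D, 366 ± 16 in S239A and 376 ± 5.7 in WT. PRDX1, a peroxidase that draws electrons from TXN, had 246 ± 11 CPM in S239D, 389.5 ± 34 in S239A and 413 ± 7.9 in WT. PRDX4, its endoplasmic reticulum relative, fell by 0.89 on the log2 scale and GLRX, a glutaredoxin at 1.52 CPM in S239D, fell by 2.13, both against WT.

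**Figure D5:**
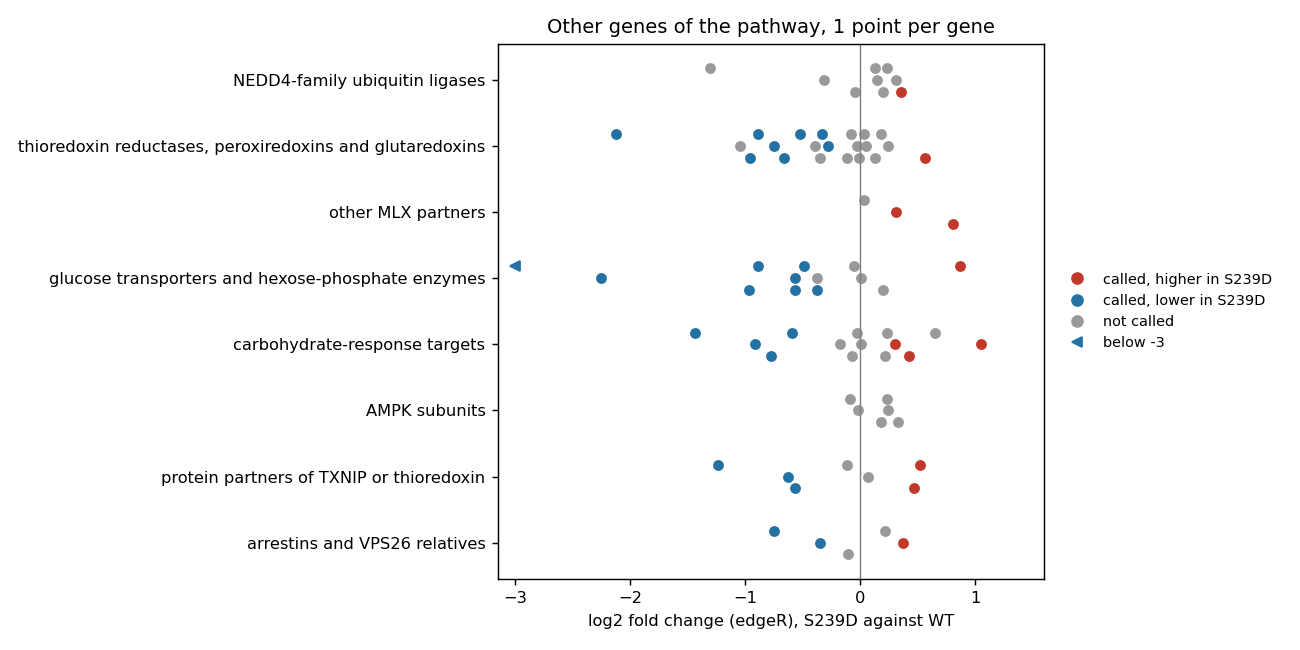
Log2 fold changes (edgeR) in S239D against WT of the 78 tested genes in 8 lists around TXNIP, 1 point per gene, red where called higher, blue where called lower and grey where not called; 1 gene below -3 is drawn at the edge as a triangle. Called genes of the glucose transporter list and the thioredoxin reductase list lie mostly left of 0.

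Other partners of MLX were partly higher in S239D than in WT. MXD1, a repressor that can pair with MLX, rose to 26.4 ± 3.8 normalised CPM in S239D, against 15.0 ± 1.2 in WT (log2 fold change 0.81, edgeR adjusted p = 0.000295), and stood at 17.0 ± 0.93 in S239A. MNT, another such repressor, rose by a log2 fold change of 0.31 (edgeR adjusted p = 0.036), with overlapping libraries. MNT did not pass without WT replicate 1 (edgeR adjusted p = 0.126), WT replicate 3 (0.137), S239D replicate 1 (0.134) or S239D replicate 3 (0.113), and its value was 0.77 by limma on log2(TPM + 0.1). Among the NEDD4-family ligases, which bind alpha-arrestins, 1 of 9 rose, beside 19.7% of all genes tested. This was NEDD4L (0.36, edgeR adjusted p = 0.00725). ITCH, the ligase that marks TXNIP for degradation, had a log2 fold change of 0.15 (edgeR adjusted p = 0.334). The 6 tested subunits of AMPK, the energy-sensing kinase that phosphorylates TXNIP, had log2 fold changes of -0.084 to 0.33 and edgeR adjusted p of 0.0533 to 0.908.

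Of 7 tested protein partners of TXNIP or thioredoxin, 2 rose and 3 fell in S239D relative to WT, beside 19.7% and 21.7% of all genes. DDIT4 (REDD1), a stress protein that forms a complex with TXNIP, ran opposite to TXNIP across the forms, at 67.5 ± 13 normalised CPM in S239D, 217 ± 44 in S239A and 159 ± 4.5 in WT. It fell by 1.23 on the log2 scale against WT (edgeR adjusted p = 2.17e-05) and by 1.68 against S239A (edgeR adjusted p = 1.09e-06). MYBBP1A rose by 0.52, KPNA2 fell by 0.63 and HDAC1 fell by 0.57 against WT. NLRP3, the inflammasome sensor that TXNIP can bind, had 1 count in 1 S239A library and no count in the others. Among the classical arrestins and their VPS26 relatives, ARRB1 rose by 0.37, ARRB2 fell by 0.75 and VPS26B fell by 0.35 against WT. By limma on log2(TPM + 1) neither ARRB1 (0.29, limma adjusted p = 0.0905) nor VPS26B (-0.14, limma adjusted p = 0.288) passed, and ARRB1 did not pass without S239D replicate 3 (0.30, edgeR adjusted p = 0.0555). ARRDC5, the remaining ARRDC gene of the table, had no count in any library.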

How the data were processed

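Poly-A-selected RNA of 9 libraries was sequenced, per the labels' protocols. The authors deposited 2 values per gene: an expected count (RSEM's estimated count, 3.81% of values not whole), not normalized between libraries, and TPM, scaled within each library. The submitters' processing notes list Trimmomatic 0.39 and RSEM; the aligner, build, annotation and strand setting are not given in the sources used here. Expected counts were rounded to whole numbers.

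Groups followed the genotype labels. Counts were filtered with filterByExpr, scaled by TMM and tested with edgeR 4.0.16 (R 4.3.3) (quasi-likelihood F test, two-sided) with all 9 libraries in 1 model, Benjamini-Hochberg adjusted over 16213 genes and called at 0.05. Log2 fold changes, SE and 95% intervals are edgeR's; normalised CPM are TMM-scaled. The code was tested on simulated data. A total of 3 counts, the limit that a count of 0 allows, equal 0.310 to 0.527 CPM per library (counting error only). Alternatives were RLE scaling, DESeq2 1.42.0, limma 3.58.1 on log2(TPM + 1) or log2(TPM + 0.1), with genes of at least 1 TPM in 3 libraries or unfiltered, no filter on counts, a filter of 1 CPM in 6 libraries, models holding only the 2 groups compared, a replicate block, and libraries left out.

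The members and lists were chosen with earlier results of these data known. Named were the members, 7 set genes, up to 4 called genes of each list with the smallest adjusted p for S239D against WT, and the genes most and least like TXNIP (5 each) and ARRDC4 (3 each). PDCD4 was the check of the design. Sequences are RefSeq's.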

Additional observations from a re-analysis of the deposited data

Results flagged for a closer look

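Among the members and the genes named from the pathway lists, 5 had a pattern in which every S239D library and every S239A library lay on opposite sides of all WT libraries, and S239D and S239A differed by the edgeR test. TXNIP (log2 fold change of S239D against S239A 1.37), ARRDC4 (1.74) and KLF10 (1.45) were highest in S239D and lowest in S239A. DDIT4 (-1.68) and ACACB (-0.93) were lowest in S239D and highest in S239A; by limma on log2(TPM + 1) ACACB did not pass (-0.53, limma adjusted p = 0.109). Genes named for their likeness to TXNIP or ARRDC4, ZBTB16 among them, were selected for following such an order and are not counted. Among all 16213 genes tested, 2.21% had the first order with no overlap between groups and 3.19% the second. Most named genes were picked as called in S239D against WT, so these shares are no yardstick for them. HK1 and NXN of the pathway lists also had the second order but were not among the named genes. TXNIP was chosen from S239A against WT, so its place below WT in S239A is a description.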

How the results depend on the processing

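Over 380 fold changes of members in S239D against WT or S239A under the alternatives, 357 kept their side of the threshold, 17 lost a call, 6 gained one, and no called value changed sign. The calls of TXNIP and ARRDC4 in S239D held in all 19 alternatives, against WT and against S239A. Members called in S239D against WT numbered 5, beside 41.4% of all genes, and 4 to 5 with a library left out, beside 32.2% to 45.5%. Under each of the 3 limma settings (pseudocounts 1 and 0.1, then no filter) they numbered 2, beside 25.1%, 24.7% and 12.9%. In S239D against S239A they numbered 3, beside 43.6% of all genes. Under each limma setting they numbered 2, ARRDC3 no longer being called, beside 27.1%, 26.7% and 14.2%. Leaving out 1 library gave 3 to 5 (5 without S239A replicate 2), beside 35.5% to 43.4%. Without both replicate 2 libraries of the variants there were 5, where MLXIP and TXN were added, beside 49.9%.

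In S239A against WT, which chose TXNIP, counts of calls only describe how the processing moves them: 1 member and 1 gene in all. They were 2 members with DESeq2 (58 genes), no filter on counts (142) and the replicate block (6). The count was 1 to 2 members and 1 to 8 genes leaving out 1 library, the upper values without S239D replicate 2 and 2 genes without WT replicate 3. Without both replicate 2 libraries it was 4 members and 874 genes (5.29%). DESeq2 gave no adjusted p there for ARRDC2, ARRDC3 and MLXIPL. The limma settings gave 2, 3 and 2 genes (pseudocounts 1 and 0.1, then no filter). Same-numbered libraries deviated together by r over 0.1 in 2 of 9 pairs, and the numbers were not taken as pairs in the main model. Between S239A and S239D, r was 0.10 for replicate 1, 0.251 for replicate 2 and 0.103 for replicate 3. For 6 of the 9 libraries, the highest r with a library of another group was with their own number, counting 1 tie. The tie was WT replicate 1, with r = 0.0252 for both S239A replicate 1 and S239A replicate 2. What same-numbered libraries share was not tested.

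All genes called in S239D against WT were 6708, and 4351, 4284 and 3717 with the limma settings; leaving out 1 library gave 5322 to 7533. Against S239A they were 7064, then 4697, 4642 and 4094, and 5853 to 7182. The 36 pathway genes called against WT ran from 31 to 41 leaving out 1 library, beside 32.2% to 45.5% of all genes. The 38 against S239A ran from 32 to 46, beside 35.5% to 43.4%. With the limma settings in the same order there were 28, 28 and 25 against WT, beside 25.1%, 24.7% and 12.9%. Against S239A there were 25, 26 and 24, beside 27.1%, 26.7% and 14.2%. With log2(TPM + 0.1) the median of all genes in S239D against S239A was 0.104. The causes were not tested. Counts behind each value were 97 to 688 per library for ARRDC2, ARRDC3, ARRDC4 and MLXIPL and 448 to 6272 for the other members.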
